A study of Schizosaccharomyces pombe with 6 samples.

Results

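Replication protein A (RPA) is the heterotrimer that coats single-stranded DNA at replication forks and at damaged sites, and ssb1, ssb2 and ssb3 encode its large, middle and small subunits in fission yeast. Ribonucleotide reductase turns ribonucleotides into the deoxyribonucleotides that DNA polymerases use. Its large catalytic subunit is encoded by cdc22 and its small, radical-bearing subunit by suc22. Hydroxyurea inhibits this enzyme and slows replication forks, and the checkpoint kinase Rad3, a member of the ATR family, is known to be recruited to RPA-coated DNA. The 5 genes were taken by name, each as a locus made of the annotated gene and 1 kb on either side. They are 5 of 4313 protein-coding loci analysed and hold 75 of 42641 nuclear probes.

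RPA was mapped by chromatin immunoprecipitation (IP) of Ssb1 in Schizosaccharomyces pombe on Agilent tiling arrays of 2 colours, 3 arrays of each of 2 strains. On each array the IP DNA of a sample was compared with the input DNA of that sample, labelled in the second dye. Both strains carry cdc25-22, a temperature-sensitive allele of the mitotic activator Cdc25, including the strain that the labels and this text call WT; the other strain also lacks rad3 and is called rad3Δ. Cultures of both strains were grown in EMM6S medium, held 4 h at 36.5 °C, returned to 25 °C and treated with 6 mM hydroxyurea. The sources used here do not give the time of harvest. The question the design asks is where Ssb1 lies with and without Rad3.

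Values are log2 IP over input, set so that the median probe of each array is 0, and are given as mean ± SD of 3 arrays. This centring removes any change shared by the whole genome, so every level and difference is relative to the median probe. More cells with RPA at a locus and more RPA per cell cannot be told apart in these bulk samples. Median input intensity was 969 to 1106 per array and 99.07% to 99.94% of probes had input well above background. For IP this share was 95.33% on WT replicate 3 and 98.72% to 99.37% on the other arrays. No member probe had input below that mark on all 3 arrays of a strain. On at least 1 array, 2 probes of cdc22, 1 of ssb1 and 1 of ssb2 fell below it in input or IP. Precision is limited by having 3 arrays per strain. No array of an IP without Ssb1 as its target was used here. The median log2 input over the 33 probes of rad3 itself was -0.45 to -0.24 on WT arrays and -7.0 to -5.09 on rad3Δ arrays, as the strain labels say. For rad3Δ replicate 3 the label of the input names cdc25-23 in place of cdc25-22. Each slide held a WT array at position 2 and a rad3Δ array at position 4, and the effects of strain and of position cannot be told apart. Nothing in the labels says that the replicates came from separate cultures, so the p-values below cover the spread between these arrays, which may be technical.

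Of the 5 genes, the reductase pair showed the widest differences between the strains, and in opposite directions. RPA fell at cdc22 and rose at suc22 in rad3Δ. The sequences before the start of both genes are shown because the pair differs there in a cell-cycle element. The MluI cell-cycle box, ACGCGT, is the core of the site bound by MBF, the transcription factor that drives cdc22 and other genes at the start of S phase. It was searched on both strands, on which it reads the same, in the 300 bp before each annotated start (RefSeq, ASM294v3). Capitals mark the box. The cdc22 stretch is chrI:4226670-4226969, plus strand, and the suc22 stretch is chrII:3721323-3721622, plus strand.
cdc22: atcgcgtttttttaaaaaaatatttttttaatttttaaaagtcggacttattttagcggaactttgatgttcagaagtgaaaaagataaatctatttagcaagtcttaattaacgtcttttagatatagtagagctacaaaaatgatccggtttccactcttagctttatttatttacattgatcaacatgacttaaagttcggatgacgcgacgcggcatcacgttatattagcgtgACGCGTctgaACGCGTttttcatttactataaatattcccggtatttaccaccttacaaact
suc22: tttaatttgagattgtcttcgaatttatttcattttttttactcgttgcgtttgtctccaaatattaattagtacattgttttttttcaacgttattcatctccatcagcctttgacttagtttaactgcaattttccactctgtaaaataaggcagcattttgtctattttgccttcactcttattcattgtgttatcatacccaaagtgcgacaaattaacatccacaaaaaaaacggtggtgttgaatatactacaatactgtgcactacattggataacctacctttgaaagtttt
In this window the cdc22 stretch held 2 boxes, at -62 and -52 from the start, and the ssb1 stretch held 3, at -90, -65 and -55. The ssb1 stretch lies wholly inside the annotated mik1 gene on the other strand, so its boxes cannot be assigned to ssb1 alone. The stretches before suc22, ssb2 and ssb3 held 0. Among 5112 protein-coding genes, 2.9% had at least 1 box in the same window and 0.29% had 2 or more. Of the genes with boxes, cdc22 differed by -0.49 and ssb1 by 0.27 (rad3Δ minus WT, log2 IP over input). Of those without, suc22 differed by 0.65, ssb2 by -0.27 and ssb3 by 0.004. The direction of change thus did not follow the boxes over the 5 genes, and a link between them was not tested. These matches are letters only and say nothing of whether MBF was bound.

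The gene of the large subunit, cdc22 (SPAC1F7.05, chromosome I, 4226970 to 4229989, plus strand, ASM294v3), was among the loci with the most RPA in WT. Its locus stood at 0.44, 0.87 and 0.75 on WT replicates 1, 2 and 3 and at 0.14, 0.17 and 0.30 on rad3Δ replicates 1, 2 and 3. The WT arrays were all higher than the rad3Δ arrays, without overlap, and the difference had the same sign on each of the 3 slides. The mean fell from 0.69 ± 0.22 to 0.20 ± 0.084, a difference of -0.49 with a standard error of 0.11 and a 95% interval from -0.72 to -0.26. The IP over input ratio in rad3Δ was thus 0.713 times that in WT (limma adjusted p = 0.00484). Over all 4313 loci, 5.36% were called lower and 16.3% higher, and 14.1% had non-overlapping arrays that were lower and 18.0% higher. The WT level of cdc22 lay above that of 99.6% of loci, its rad3Δ level above 73.7%, and its difference above 0.3%.

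The loss at cdc22 was spread along the gene. All 18 probes of the locus were lower in rad3Δ, by 0.19 to 0.93 on the log2 scale, with the largest difference, -0.93, at the first probe inside the gene. That probe has no value on rad3Δ replicate 2, where its spot carried an outlier flag, and another probe downstream lacks the same array. Of the 16 complete probes, 5 had non-overlapping arrays; over all complete probes of the genome this share was 7.06%. No single probe passed the limma test adjusted over all probes, where 0.0844% were called lower, although 9 of the 18 had an unadjusted p under 0.05. With the replicate number as a block in place of the dye term, 3 of the 18 were called, against 0.45% of all probes. In WT, 14 of the 18 probes stood above the array median by the limma test, against 12.8% of all probes, and in rad3Δ 4 did, against 17.2%.

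Inside the cdc22 gene itself, 11 probes gave 0.45, 0.99 and 0.93 on the WT arrays and 0.057, 0.13 and 0.39 on the rad3Δ arrays. The fall there was -0.60 (SE 0.14, limma adjusted p = 0.0274, 1.12% of genes called lower), and this call was lost without rad3Δ replicate 1 (adjusted p = 0.0901) and without either replicate 3 array (0.142). The 1 kb before the gene moved from 0.69 ± 0.21 to 0.43 ± 0.13, which did not pass the test (adjusted p = 0.218, 0.885% called lower). The 1 kb after the gene moved from 0.41 ± 0.15 to 0.020 ± 0.067, and its adjusted p was 0.0743 (1.35% called lower) although its arrays did not overlap. With the replicate block it passed (adjusted p = 0.0294, 5.77% called lower). An annotated antisense noncoding RNA covers the whole of cdc22, and hsp3105 begins 860 bp beyond its end. The probe coordinates of the files belong to an older build, in which this arm of chromosome I lies off ASM294v3, and the locus was placed with an offset of 6147 bp found from probe lengths and G+C content alone (r = -0.649 over 300 probes, against 0.036 with no offset). In the files' own coordinates its probes run from 4219881 to 4224834.

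The gene of the small subunit, suc22 (SPBC25D12.04, chromosome II, 3721623 to 3723072, plus strand), changed the other way. Its locus stood at 0.12, 0.43 and 0.19 on WT replicates 1, 2 and 3 and at 0.65, 0.93 and 1.11 on rad3Δ replicates 1, 2 and 3. Every rad3Δ array was higher than every WT array, as at 18.0% of all loci. The mean rose from 0.24 ± 0.17 to 0.90 ± 0.23, a difference of 0.65 (SE 0.12, 95% interval 0.40 to 0.91) or 1.57-fold in the ratio (limma adjusted p = 0.0012, higher on 3 of 3 slides). This locus lay above 83.5% of loci in WT and above 98.7% in rad3Δ. As many as 16.3% of loci were called higher, and the difference of suc22 exceeded that of 96.0% of all loci. With normexp background correction neither reductase gene passed the test, at 0.28 for suc22 (adjusted p = 0.568) and -0.55 for cdc22 (0.0909). Under that correction limma called 0 of the 4313 loci, with 489 higher and 457 lower at an unadjusted p under 0.05.

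All 13 probes of the suc22 locus were higher in rad3Δ, by 0.38 to 0.98. WT and rad3Δ arrays were separate at 9 of them, against 10.5% of probes in the genome. Only 2 passed the limma test over all probes, of which 3.52% were called higher, and both lay before the gene. The probe centred at -603 bp from the start read 0.062, -0.22 and -0.45 on the WT arrays and 0.75, 0.92 and 0.68 on the rad3Δ arrays (adjusted p = 0.0146). The probe at -811.5 bp read 0.71, 0.32 and 0.39 and then 1.41, 1.33 and 1.36 (adjusted p = 0.026). With the replicate block, 5 of the 13 were called, against 5.68% of all probes. Against the array median, 5 of the 13 were above it in WT and 13 of 13 in rad3Δ.

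**Figure D1:**
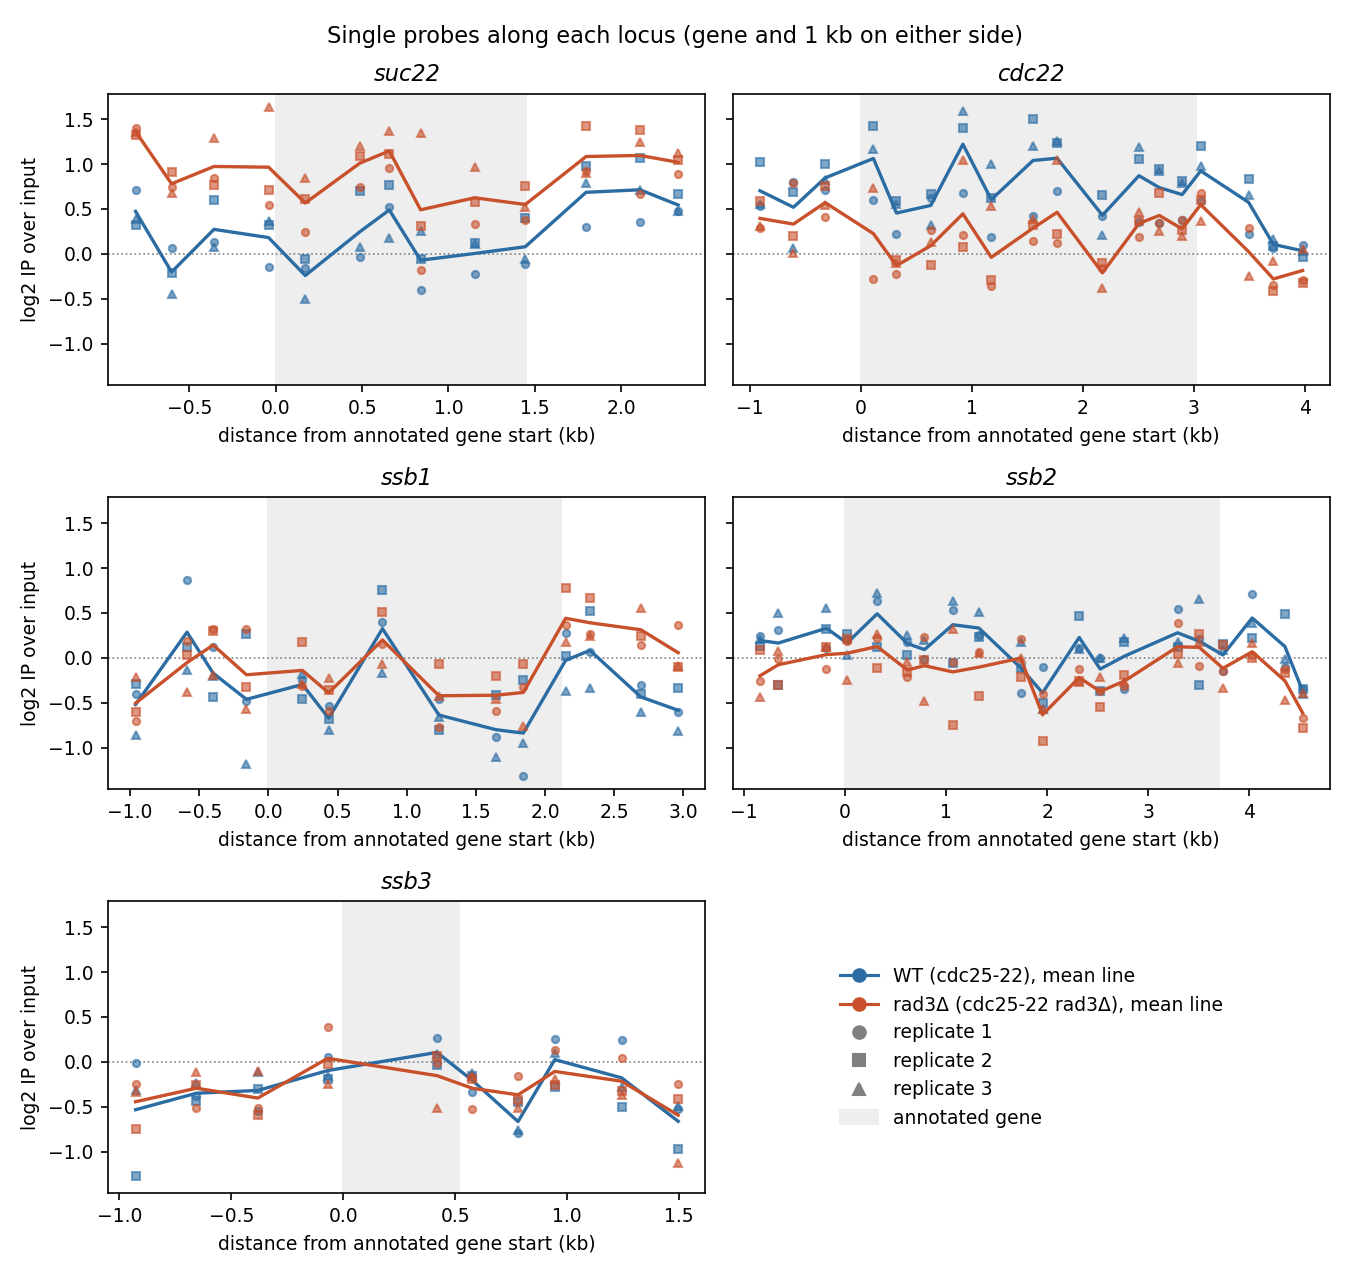
Log2 IP over input of single probes (y axis, array median at 0) against distance from the annotated gene start in kb (x axis) at each of the 5 loci, with blue for WT, red for rad3Δ, a marker shape per replicate, lines for strain means and grey for the annotated gene. All 13 probes of suc22 are higher in rad3Δ and all 18 probes of cdc22 lower, while the lines of ssb3 cross.

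Within the suc22 locus, the rise was widest before the gene and smallest after it. The 1 kb upstream went from 0.18 ± 0.081 to 1.02 ± 0.20, a difference of 0.84 (SE 0.13, limma adjusted p = 0.00116, 11.4% of upstream stretches called higher). The gene went from 0.084 ± 0.20 to 0.73 ± 0.31, a difference of 0.65 (adjusted p = 0.0333, 9.15% of genes called higher), and this call was lost without WT replicate 1 (0.0769), without rad3Δ replicate 2 (0.0733) and without either replicate 3 array (0.295). The 1 kb downstream was already high in WT, at 0.38, 0.91 and 0.66, and stood at 0.83, 1.28 and 1.09 in rad3Δ. The arrays overlapped there and the difference of 0.42 did not pass the test (adjusted p = 0.128, 8.58% called higher). Within slides it was 0.45, 0.38 and 0.43, and with the replicate block it passed (adjusted p = 0.0128, 12.7% called higher).

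That downstream stretch begins inside an AT-rich island, a 500 bp window or merged windows with at least 75% A+T. Fission yeast replication origins are known to lie in such DNA, with no fixed consensus but many asymmetric A and T runs. The island of suc22 (chrII:3722901-3723400, 75.8% A+T) overlaps the last 172 bp of the gene. An island overlapped 4.7% of the analysed genes. The other members lay 6790 bp (ssb2) to 28686 bp (ssb3) from their nearest islands. The first 300 bp after suc22 (chrII:3723073-3723372, plus strand, ASM294v3) are shown because they lie within this island and just before the probes that were high in both strains. Capitals mark runs of at least 6 A or T, of which there are 2.
gap after suc22: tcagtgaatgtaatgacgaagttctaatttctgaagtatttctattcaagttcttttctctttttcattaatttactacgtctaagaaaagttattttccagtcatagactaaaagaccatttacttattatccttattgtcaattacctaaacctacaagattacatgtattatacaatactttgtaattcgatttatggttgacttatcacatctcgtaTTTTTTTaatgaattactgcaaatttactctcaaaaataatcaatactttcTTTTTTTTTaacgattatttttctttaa
The next gene on the same strand, trm1, a tRNA methyltransferase gene, begins 310 bp after suc22 and shares 6 of its 13 probes. Its locus went from 0.26 ± 0.12 to 0.51 ± 0.18, and the difference of 0.26 did not pass the test (limma adjusted p = 0.0923).

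Beyond the locus, the ratio was read in bins of 1 kb out to 10 kb, a view added after the data had been seen and given without a test. How many such bins over the genome have arrays without overlap was not counted. Of all 4313 loci, 18.0% were higher without overlap and 14.1% lower. Upstream of suc22 the bin at 1 to 2 kb stood at 0.12, 0.14 and -0.033 in WT and at 0.84, 1.05 and 1.27 in rad3Δ. Its difference within slides was 0.71, 0.91 and 1.30. That was wider on each slide than in the first kb upstream (0.69, 0.68 and 1.15). The widest rise read here thus lay outside the locus. All rad3Δ arrays were higher than all WT arrays in the bins from 0 to 3 kb and from 4 to 9 kb upstream. Downstream they overlapped in every bin from 0 to 9 kb, and at 9 to 10 kb rad3Δ was higher without overlap. On the upstream side the separation of the arrays thus reached several kb.

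At cdc22 the shape was different. The bins from 1 to 5 kb on both sides overlapped between strains, and the mean ratio fell from 0.69 in the first kb upstream to -0.20 in the next in WT. Further off, rad3Δ was lower without overlap at 5 to 6 and 7 to 8 kb upstream. At 8 to 9 kb downstream it was higher without overlap, with 0.21, -0.043 and 0.24 in WT and 0.81, 0.92 and 1.33 in rad3Δ. Within 5 kb of cdc22 the gene and the kb after it were the bins without overlap, both lower in rad3Δ.

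**Figure D2:**
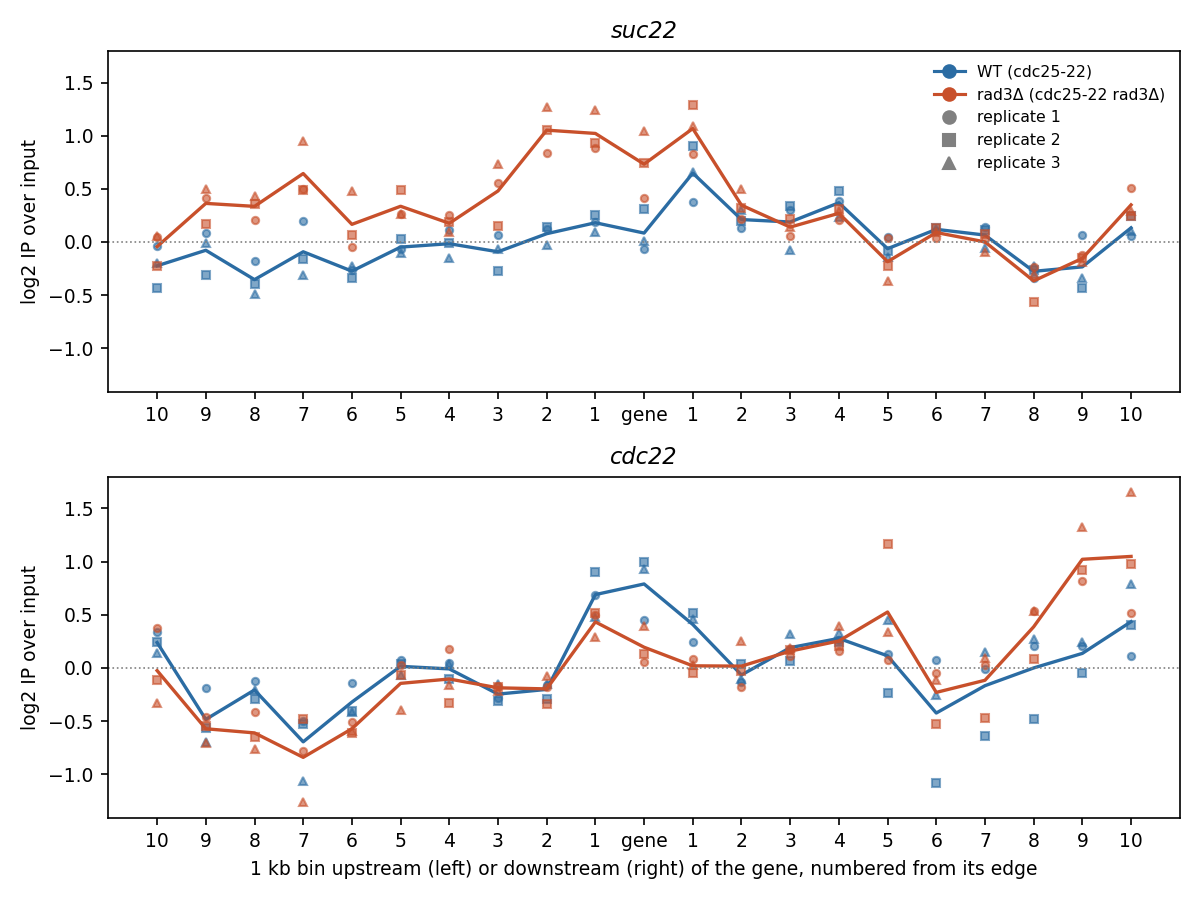
Mean log2 IP over input per bin of 1 kb (y axis, array median at 0) from 10 kb upstream to 10 kb downstream of suc22 and cdc22 (x axis, the gene as a single bin), with lines for strain means and a marker per replicate. The rad3Δ line lies above the WT line from suc22 out to 10 kb upstream, and below it at cdc22 and the adjoining bins.

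A difference between loci on the same array cannot be moved by centring, and it was formed after the data had been seen. The ratio of suc22 minus that of cdc22 was -0.33, -0.44 and -0.56 on WT replicates 1, 2 and 3, so cdc22 stood higher on each WT array. It was 0.52, 0.76 and 0.82 on the rad3Δ arrays, so suc22 stood higher on each of them. The change between strains was 1.14, with an exact two-sided permutation p = 0.1, the smallest that 3 arrays against 3 allow. In WT the order from high to low was cdc22, suc22, ssb2, ssb3 and ssb1, and the arrays overlapped between suc22 and ssb2 and between ssb3 and ssb1. In rad3Δ the order was suc22, cdc22, ssb1, ssb2 and ssb3, with overlap between ssb1 and ssb2 and between ssb2 and ssb3.

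**Figure D3:**
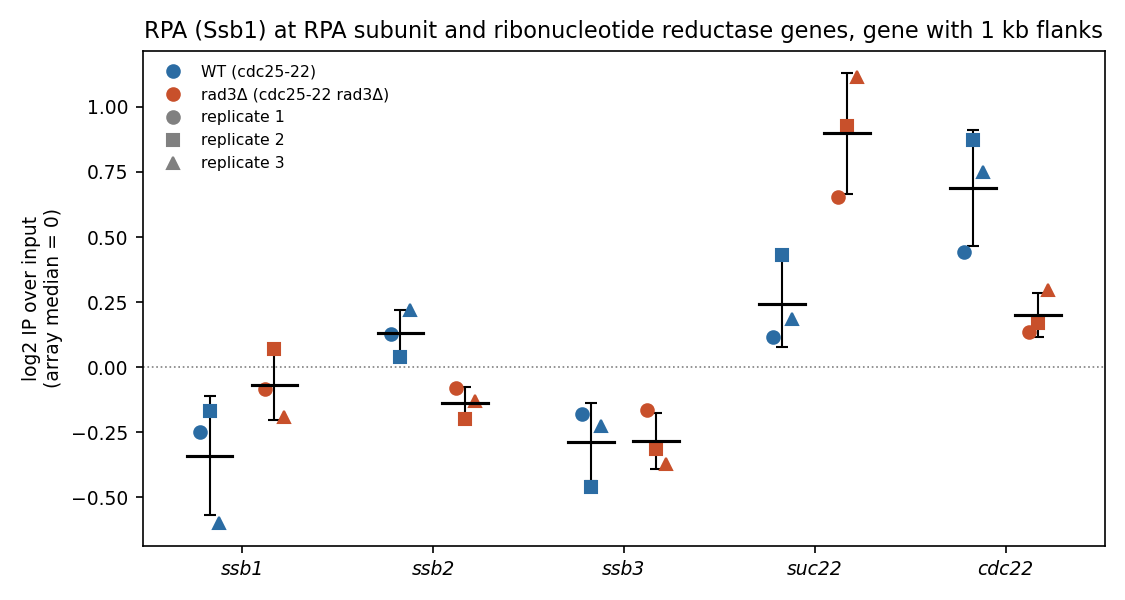
Log2 IP over input of each locus (y axis, array median at 0) for the 5 genes (x axis), with a marker per array, a bar at the strain mean and whiskers of 1 SD (n = 3 per strain). The suc22 arrays of rad3Δ (0.65 to 1.11) lie above those of WT, the cdc22 arrays of rad3Δ (0.14 to 0.30) below those of WT, and the ssb3 arrays overlap.

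The RPA subunit genes differed less between the strains than the reductase genes. The large subunit gene, ssb1 (SPBC660.13C, chromosome II, 219182 to 221298, minus strand), which encodes the precipitated protein, stood at -0.25, -0.17 and -0.60 in WT and at -0.083, 0.071 and -0.19 in rad3Δ. Replicate 3 was lowest in both strains, and the arrays of the strains overlapped. The mean rose from -0.34 ± 0.23 to -0.069 ± 0.13, a difference of 0.27 (SE 0.090, 95% interval 0.078 to 0.46, 1.21-fold) that passed the test narrowly (limma adjusted p = 0.0455, 16.3% of loci called higher, higher on 3 of 3 slides). Over 16 alternative settings it passed in 7, with adjusted p from 0.00785 to 0.358, and it was lost without WT replicate 1, rad3Δ replicate 2 or either replicate 3 array.

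In WT the ssb1 locus was below the array median (fitted level -0.39, limma adjusted p = 0.000265, with 26.7% of loci below), and in rad3Δ its fitted level of -0.12 was not distinguished from it (adjusted p = 0.138, with 28.8% of loci below). The part of ssb1 that differed most was the 1 kb after the gene, at -0.14, -0.049 and -0.54 in WT and 0.28, 0.40 and 0.22 in rad3Δ. These arrays did not overlap, and the difference of 0.54 passed the test (adjusted p = 0.0163) (8.58% called higher), but not without either replicate 3 array (0.287). The gene itself differed by 0.23 and the 1 kb upstream by 0.066, and neither passed (adjusted p = 0.272 and 0.78). Single probes were higher in 12 of 14 cases, 0 of them called by limma (3.52% of all probes were called higher), with 3 of the 14 at an unadjusted p under 0.05. With the replicate block 1 of the 14 was called, against 5.68% of all probes. In WT 8 of the 14 stood below the array median by the test, against 16.0% of all probes, and in rad3Δ 2 did, against 17.6%.

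The downstream kb of ssb1 lies toward egt2, an ergothioneine synthesis gene on the same strand that begins 832 bp away and shares 4 of its 16 probes. The egt2 locus rose by 0.32 (limma adjusted p = 0.0161, 16.3% of loci called higher). On the other side ssb1 meets mik1, the gene of a kinase that restrains mitosis, with which it overlaps by 1 bp head to head. The mik1 locus stood at -0.33 ± 0.22 and -0.29 ± 0.27, and its difference of 0.035 did not pass the test (adjusted p = 0.785).

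The middle subunit gene, ssb2 (SPCC1753.01C, chromosome III, 1538390 to 1542092, minus strand), moved the opposite way from ssb1. It stood at 0.13, 0.039 and 0.22 in WT and at -0.078, -0.20 and -0.13 in rad3Δ. All rad3Δ arrays were lower than all WT arrays, as at 14.1% of all loci. The difference was -0.27 (SE 0.086, 95% interval -0.45 to -0.080, 0.832 times, limma adjusted p = 0.0426, 5.36% of loci called lower, lower on 3 of 3 slides). It passed in 6 of 16 alternative settings (adjusted p from 0.012 to 0.309), not without WT replicate 1, rad3Δ replicate 2 or either replicate 3 array. Neither strain's level was distinguished from the array median (adjusted p = 0.0716 in WT and 0.104 in rad3Δ). With the replicate block both were, at 0.13 in WT (adjusted p = 0.0316, 32.3% of loci above) and at -0.14 in rad3Δ (adjusted p = 0.0237, 32.9% of loci below). Under that block 20.9% of loci were called higher between the strains and 16.7% lower, and the calls of ssb1, ssb2, suc22 and cdc22 stayed.

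The lower ratio at ssb2 was even along the locus. Of 20 probes 19 were lower, 6 without overlap, and 0 were called, with 2 at an unadjusted p under 0.05. Over all probes, 7.06% of complete ones were lower without overlap and 0.0844% were called lower. Of the 20 probes, 1 lacks WT replicate 2 and was left out of the overlap count. The upstream kb, the gene and the downstream kb differed by -0.31, -0.25 and -0.29, none past the test on its own (adjusted p = 0.151, 0.174 and 0.154). The gene of a vesicle fusion regulator, sec1, overlaps ssb2 on the other strand over 3595 bp, and 20 of its 21 probes are those of ssb2, so the values of the pair (-0.27 and -0.26) cannot be told apart. The flanking loci of sup35, a translation termination factor gene, and git3, a glucose receptor gene, which also share probes with ssb2, differed by -0.21 and -0.18 without overlap of arrays and did not pass the test (adjusted p = 0.0928 and 0.145). Over all loci, 14.1% were lower without overlap.

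The small subunit gene, ssb3 (SPCC23B6.05C, chromosome III, 1281886 to 1282401, minus strand), is short, and only 1 of its 10 probes lies in the gene. It stood at -0.18, -0.46 and -0.23 in WT and at -0.17, -0.32 and -0.37 in rad3Δ. The arrays overlapped, and the difference of 0.004 had a 95% interval from -0.21 to 0.22 (limma adjusted p = 0.98). Probes were split, 5 higher and 5 lower. In both strains the locus lay below the array median, at fitted levels of -0.29 and -0.29 (adjusted p = 0.00414 and 0.00382). The ratio of ssb1 minus that of ssb2 went from -0.47 ± 0.32 to 0.067 ± 0.18 without overlap (exact two-sided permutation p = 0.1, the smallest possible). This pair was formed after their opposite differences had been seen, so its separation follows from that choice and adds no support.

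Against the array median, cdc22 was above it in WT (limma adjusted p = 1.02e-05) and suc22 was too, less firmly (adjusted p = 0.0182), where 27.7% of all loci were. In rad3Δ suc22 (adjusted p = 1.27e-06) and cdc22 (adjusted p = 0.0251) were above it, where 30.6% of loci were. The call of suc22 in WT held in 10 of 16 alternative settings and was lost without WT replicate 2 (fitted level 0.15, limma adjusted p = 0.131). That of cdc22 in rad3Δ held in 9 and was lost without rad3Δ replicate 2 (fitted level 0.22) or replicate 3 (fitted level 0.20). It was also lost without both replicate 3 arrays.

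The channels of the array were read apart to see which of them carried each difference. At suc22 the log2 IP signal, centred in the same way, rose by 0.79 (SE 0.13, limma adjusted p = 0.00255, 14.1% of loci called higher; 0.0729 without either replicate 3 array), from 0.68, 0.91 and 0.63 to 1.28, 1.61 and 1.69. Its input was also higher on each rad3Δ array, 0.69, 0.71 and 0.60 against 0.60, 0.49 and 0.46 in WT, and its lowest rad3Δ array lay just above the highest WT array. This input difference of 0.15 had an unadjusted p of 0.0192 and an adjusted p of 0.999. No locus was called higher in input (0.0%; 161 at an unadjusted p under 0.05) and 3 were called lower (0.0696%).

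At cdc22 the log2 IP signal fell by 0.61 (limma adjusted p = 0.00771, 5.5% of loci called lower; 0.0695 without either replicate 3 array), from 0.58, 0.94 and 0.73 to 0.19, -0.039 and 0.27. Its input overlapped between the strains, at 0.079 ± 0.094 and -0.021 ± 0.16. At ssb2 the IP signal fell by 0.31 (adjusted p = 0.0377, and 0.0607 to 0.265 with any array left out) and the input differed by -0.027. At ssb1 the IP signal differed by 0.26, which did not pass (adjusted p = 0.131). It passed with the replicate block (adjusted p = 0.00949, 22.7% of loci called higher) and without rad3Δ replicate 1 (0.37, adjusted p = 0.0426), and the input differed by 0.004. At ssb3 neither channel moved past the test (IP -0.049, adjusted p = 0.768).

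**Figure D4:**
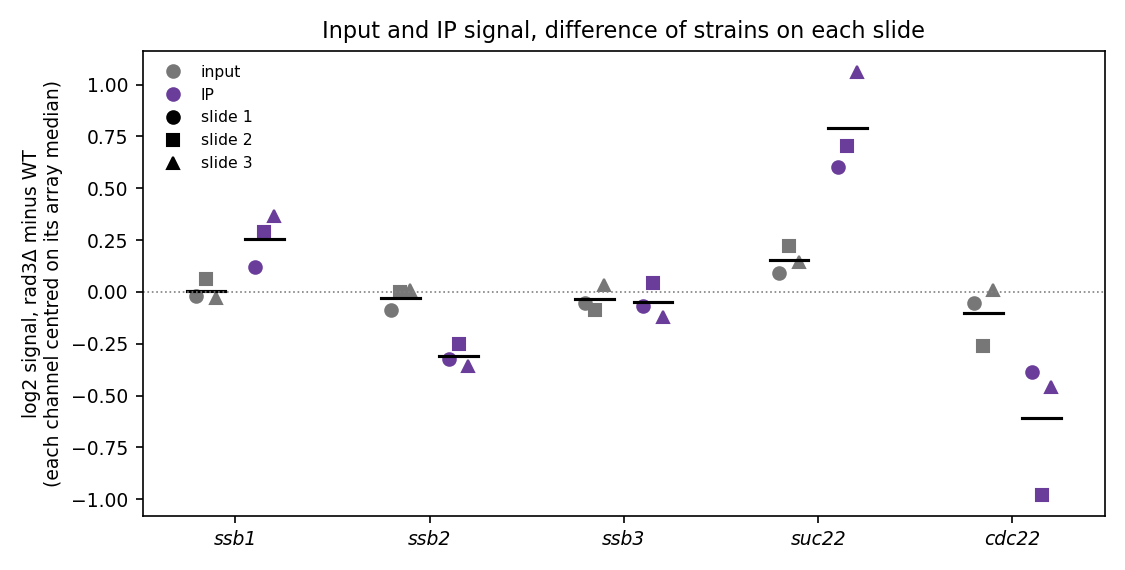
Difference of log2 signal, rad3Δ minus WT, on each of the 3 slides (markers) with its mean (bars), for input in grey and IP in purple, each centred on its array median, at the 5 genes. The IP differences of suc22 average 0.79 and those of cdc22 -0.61, while the input differences average 0.15 and -0.10.

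For each member the genes at least 10 kb away with the nearest values over the 6 arrays were named, by Euclidean distance of locus means. Nearest to suc22 were sym1 (distance 0.175; 0.31 ± 0.12 to 0.93 ± 0.16) and tam11 (0.218; 0.23 ± 0.036 to 0.83 ± 0.22). Nearest to cdc22 were met26, the methionine synthase gene (0.271; 0.59 ± 0.23 to 0.093 ± 0.13), and knh4 (0.283; 0.71 ± 0.29 to 0.26 ± 0.15). Those of ssb2 were lcf1, a fatty acyl-CoA ligase gene (0.073), and SPAPB24D3.03 (0.099), those of ssb1 were aes1 (0.158) and arb1 (0.162), and those of ssb3 were fml1 (0.135) and sec11 (0.145). The distances of cdc22 were the largest of the 5.

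Genes that supply nucleotides or control the reductase were set beside the pair. Of 16 listed, 12 had a locus, and 3 rose, 0 fell and 9 did not pass the limma test. The 3 are 25.0% of the 12, where 16.3% of all loci were called higher and 5.36% lower, and the median difference was 0.088 against -0.035 over all loci. The largest rise was at ddb1, whose product is part of the Cul4 and Cdt2 ubiquitin ligase that removes the reductase inhibitor Spd1. It went from -0.36 ± 0.096 to 0.59 ± 0.18, a difference of 0.95 (adjusted p = 2.4e-05). The others were trx2, a thioredoxin gene, with 0.40 (adjusted p = 0.00444), and dut1, the dUTPase gene, with 0.40 (adjusted p = 0.0134). The rest of the ligase's genes with a locus, cdt2 and cul4, did not pass, and spd1 had no locus.

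Of 28 checkpoint and repair genes, 21 had a locus, and 5 rose (23.8%, against 16.3% of all loci) and 1 fell (4.76%, against 5.36%), with a median difference of -0.15. The single fall was at rad9, a subunit of the checkpoint clamp that helps activate Rad3, from 0.38 ± 0.052 to -0.078 ± 0.050 (-0.45, limma adjusted p = 0.0013). The rises included swi1, of the fork protection complex (0.64), mre11, a nuclease subunit (0.63), rad57, a recombination gene (0.50), and eme1, the partner of Mus81 (0.37). The swi1 rise was uneven, with 1.12 on rad3Δ replicate 1 and 0.12 and 0.025 on the others. Of 37 replisome genes, 33 had a locus, 3 rose (9.09%, against 16.3% of all loci) and 0 fell (5.36% of all loci), with a median difference of -0.023. They were hsk1, the kinase that triggers origins (0.93), mcm7, of the replicative helicase (0.66), and dpb2, of DNA polymerase epsilon (0.32).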

How the data were processed

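Arrays were Agilent scanner files with spot intensities; per the file headers these deposited intensity values were background-subtracted, spatially detrended and scaled by a linear dye factor, with Feature Extraction 10.7.1.1 or 10.7.3.1 (10.7.3.1 per the submitters' processing notes). The deposited LogRatio column gives log10 of red over green, per the file headers. The authors' value table gives the linear IP to input ratio, apparently uncentred, with column medians of 0.996 to 1.06; 100.0% of its values were within 1% of the scanner ratio. The protocols in the labels mention RNA where the channel labels name IP and input.

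From the deposited intensities, log2 of IP over input was computed, outlier-flagged spots (2 to 401 per array) were left out and each array was centred on its median. The IP was in green on replicates 1 and 2 and in red on replicate 3. A locus was a protein-coding gene with 2 or more probes centred in it or within 1000 bp, where the files' coordinates (Spombe:NCBI:Feb2002) match ASM294v3 (36483 probes, 85.6%), plus cdc22. A limma 3.58.1 model (R 4.3.3) with a mean per strain and a dye term was fitted over all loci, probes or parts, two-sided, with Benjamini-Hochberg adjustment at 0.05 over all of them. Fitted levels are midpoints of the dye orientations. Permutation tests used scipy 1.17.1, and other steps Python 3.11.15, pandas 2.3.3, numpy 2.4.6 and matplotlib 3.10.9. Tested on simulated data for the strain comparison of 4313 loci, the fit recovered 67% of 200 changes of 0.5 and 100% of 200 changes of 1 (log2).

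Replicate numbers come from the titles and match the slides (same-numbered arrays deviated together, r = 0.399, 0.361 and 0.482), so a fit with the replicate block was run beside the main fit. Other alternatives were the authors' ratio, normexp, mode centring, no dye term, leaving out arrays, brighter probes, other flanks and a median over probes. The files hold no mean signal, so normexp used median signals. Named were all members, genes overlapping their windows, the 2 nearest patterns of each, and the called genes of each list, up to 6; a gene counted in a list is not reported here by name. Of the nearest AT-rich islands only their distances are given for members other than suc22. The members and lists were chosen with earlier results of these data known.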

Additional observations from a re-analysis of the deposited data

Results flagged for a closer look

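Loci of 4 members differed between the strains by the test of the difference itself (limma, rad3Δ minus WT, log2 IP over input). The difference was 0.654 at suc22, -0.488 at cdc22, 0.271 at ssb1 and -0.266 at ssb2. WT and rad3Δ arrays had separate ranges at suc22, cdc22 and ssb2, and overlapping ranges at ssb1. Over all 4313 loci, 16.3% were called higher and 5.36% lower, and 18.0% had separate ranges that were higher and 14.1% lower. Strain and slide position cannot be told apart in any of them.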

How the results depend on the processing

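The differences at suc22 and cdc22 kept their sign in all 16 alternatives and their call in 15; only normexp ended them, at 0.28 (limma adjusted p = 0.568) and -0.55 (0.0909). With normexp 0 of 4313 loci were called (limma; 489 higher and 457 lower at an unadjusted p under 0.05), and the cause was not tested. Calls over all loci moved from 701 higher and 231 lower to 706 and 49 with mode centring, 454 and 38 without a dye term, 391 and 48 with the gene only, 607 and 152 with 500 bp flanks, and 900 and 722 with the replicate block. The difference at ssb1 lost its call with normexp (0.22, adjusted p = 0.278), without a dye term (0.27, 0.206), with the gene only (0.23, 0.272) and with 500 bp flanks (0.27, 0.0779). That at ssb2 lost it with normexp (-0.41, 0.182), mode centring (-0.22, 0.144), no dye term (-0.27, 0.12), the gene only (-0.25, 0.174) and 500 bp flanks (-0.25, 0.0777). The value at ssb3 turned sign with the gene only (-0.26), with 500 bp flanks (-0.022) and with a median over probes (-0.014).

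Leaving out an array gave 0.52 to 0.78 at suc22, -0.61 to -0.36 at cdc22, 0.20 to 0.34 at ssb1, -0.31 to -0.22 at ssb2 and -0.097 to 0.078 at ssb3. The call of ssb1 and of ssb2 was lost without WT replicate 1, WT replicate 3, rad3Δ replicate 2 or rad3Δ replicate 3. For strain differences, leaving out either replicate 3 array equals leaving out both, because the dye term then takes up the other. With such an array left out, 337 loci were called higher and 21 lower. Fitted levels are not equal between these settings. The range of fitted levels in WT was -0.43 to -0.21 (ssb1), 0.084 to 0.18 (ssb2), -0.38 to -0.20 (ssb3), 0.15 to 0.44 (suc22) and 0.60 to 0.81 (cdc22). In rad3Δ it was -0.20 to -0.006, -0.17 to -0.070, -0.34 to -0.20, 0.75 to 1.02 and 0.15 to 0.24 in the same order. Calls of a level were lost for suc22 in WT without WT replicate 2 and for ssb3 in rad3Δ without rad3Δ replicate 3. They were also lost for cdc22 in rad3Δ without rad3Δ replicate 2 or 3. Without both replicate 3 arrays they were lost for cdc22 in rad3Δ and for ssb1 in WT.

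The level of suc22 in WT lost its call with normexp (0.34), mode centring (0.20), no dye term (0.24), the gene only (0.11) and 500 bp flanks (0.22), and in rad3Δ with normexp (0.62). The level of cdc22 in rad3Δ lost it with normexp (0.18), mode centring (0.20), no dye term (0.20) and the gene only (0.24). The level of ssb3 in rad3Δ lost it with normexp (-0.21) and the gene only (-0.20), and in WT turned to 0.058 with the gene only, where it rests on 1 probe. The level of ssb1 in rad3Δ gained a call with the gene only (-0.29). The replicate block added the levels of ssb2 (0.13 in WT, -0.14 in rad3Δ), the IP difference of ssb1 (0.26) and the differences in the 1 kb after suc22 and after cdc22 (0.42 and -0.39), and changed no other call of a member locus or of a difference in its parts.

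IP differences lost their call with normexp at suc22 (0.48) and ssb2 (-0.40), and at ssb3 normexp turned the input (0.038) and the IP (0.14). Without an array, IP differences were 0.65 to 0.92 (suc22), -0.69 to -0.48 (cdc22), 0.18 to 0.37 (ssb1), -0.33 to -0.29 (ssb2) and -0.14 to 0.026 (ssb3). Input differences were 0.12 to 0.19, -0.17 to 0.003, -0.037 to 0.036, -0.059 to 0.015 and -0.069 to -0.002 in that order. Of the 75 member probes, 2 were called higher and 0 lower (14 and 11 at an unadjusted p under 0.05), against 3.52% and 0.0844% of all probes. With the replicate block 6 and 3 were called, against 5.68% and 0.45% of all probes. With normexp, the gene only and 500 bp flanks 0 were called (11, 17 and 20 at an unadjusted p under 0.05 in either direction). Without an array 0 to 4 were called higher (0 without either replicate 3 array, 8 of 75 then at an unadjusted p under 0.05) and 0 to 1 lower. Over all 42641 nuclear probes, limma with normexp called 5 higher and 0 lower. Without an array it called 0 to 1485 of all nuclear probes higher and 0 to 74 lower. Without either replicate 3 array it called 0 of them in each direction.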
